A study of Mus musculus with 6 samples.

Results

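The genes described here are 31 regulators and markers of the dividing cells of the embryonic brain and spinal cord. They were taken as a fixed list of symbols, and all 31 had a row among the 23366 genes of the count tables. All 31 also passed the filter on low counts, which left 15075 genes to test. They were read as 5 groups: 7 genes of neural progenitors in general, 4 of the forebrain, 7 of the midbrain and hindbrain, 5 of the dorsal neural tube and 8 of the ventral and intermediate neural tube.

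The neural tube is divided along its length and from back to belly before its cells become neurons. Transcription factors of the Sox, Pax, Nkx, Olig, Dbx, Irx and Otx families mark bands of progenitors, and each band gives rise to its own kinds of neuron. Bands are set by secreted signals: Wnt and bone morphogenetic proteins from the dorsal midline, Sonic hedgehog from the ventral midline, and Wnt1 and fibroblast growth factors at the border between midbrain and hindbrain.

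The libraries, 3 control and 3 knockout, were made from polyadenylated RNA of entire mouse embryos at E10.5. Histone H3.3, the H3 variant laid down outside DNA replication, is encoded by H3f3a and H3f3b. Knockouts carried H3f3a fl/- and H3f3b fl/-, a floxed and a null allele of each gene, and controls carried H3f3a fl/+ and H3f3b fl/+. All embryos of both groups were Trp53-/-, so they lacked the tumour suppressor p53, and all carried Sox2-Cre Tg/0, a recombinase transgene active in the epiblast, from which the whole embryo proper forms. The floxed alleles of both groups were exposed to the recombinase, so controls are not a group with intact H3.3 genes. The strain was a mixture of C57BL/6, CD1 and 129. The labels do not say whether embryos were littermates or pooled, and the p-values below rest on the spread among these 6 libraries, part of which may be technical. A library is also termed an embryo below, without knowledge of pooling.

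The libraries held 24952853 to 30461689 counts in genes. H3f3a was at 338, 366 and 342 CPM (counts scaled to library size, with TMM factors) in controls and at 70.0, 64.4 and 68.5 CPM in knockouts, a log2 fold change of -2.37 ± 0.08 (SE, edgeR adjusted p = 1.5e-06, n = 3 against 3). H3f3b had a log2 fold change of -0.60 ± 0.10 (edgeR adjusted p = 0.0257), a call that 4 of the 6 fits omitting a library did not give: control 1 (0.14), control 2 (0.113), control 3 (0.0617) and knockout 3 (0.0938). In the whole comparison 83 genes, 0.551% of those tested, were higher in knockouts and 144, 0.955%, were lower by edgeR at an adjusted p under 0.05, here termed called. Together that is 1.51% of the tested genes. Reads outside genes made up 18.3% and 18.0% of alignments in knockouts 1 and 3, against 10.6% in knockout 2 and 9.79% to 13.1% in the controls. RNA came from whole embryos, so fewer cells of a type and less RNA per cell cannot be told apart in any value below. Reads of a listed gene from the neural tube and from other tissues cannot be told apart either, whether or not other tissues are named.

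Marker lists of the tissues a whole embryo holds were all detected. Of 15 neuronal markers every fold was below 0, 10 were at an unadjusted p under 0.05 (66.7%, beside 19.2% of all tested genes), and 5 had groups that did not overlap. EdgeR called Nhlh1 alone, and DESeq2 called Nhlh1, Tubb3 and Ina. Their summed level was 1303 to 1809 CPM in controls and 1172 to 1466 CPM in knockouts, ranges that overlap. Of 8 endothelial markers 7 folds were above 0 and 4 (50%) were at an unadjusted p under 0.05, all higher. EdgeR called Kdr and DESeq2 also Tie1, Flt1 and Esam, with sums of 348 to 365 CPM against 390.3 to 524 CPM. Of 9 tested macrophage markers 8 were called lower, with sums of 53.2 to 64.0 CPM against 2.95 to 4.43 CPM, and C1qb was at 0 in every knockout. Of 8 neural crest markers no tool (edgeR, DESeq2, limma-voom) called any and edgeR put none at an unadjusted p under 0.05; their sums were 261 to 279 CPM in controls and 277 to 288 CPM in knockouts. Of the other lists, edgeR called Nppa of 7 heart genes higher, Ttr of 7 endoderm genes lower, and none of 12 mesenchyme or 7 erythroid genes. Apart from C1qb, every tested marker had counts in both groups. These lists were chosen with earlier results of these data known, so their shares are no test of a list. The part of these cell types in the results on neural genes was not tested.

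Most neural progenitor and patterning genes were near their control level in the knockouts. Fgf15, a fibroblast growth factor gene of the embryonic brain, was the only called member, with a level 1.92-fold higher in the fitted model. Of the 31 members 1 was called higher and none lower, beside 1.51% of all tested genes in either direction, so the share of members called gives no result about the group. At an unadjusted p under 0.05, 7 were higher and 3 lower, beside 19.2% of all tested genes. The groups of 3 embryos did not overlap for 10 members, 7 higher and 3 lower, or 32.3% of members, beside 24.1% of all tested genes (11.8% higher and 12.3% lower). The median log2 fold change was 0.065 over the members and -0.001 over all tested genes. The member median rested on single libraries: it was -0.00040 without control 2, 0.025 without knockout 3, 0.10 without knockout 2 and 0.024 with the outside-gene read share as a covariate. Unadjusted 95% intervals of the fold lay within 2-fold either way for 26 of 31 members, and within 1.5-fold for 17. The wide intervals belonged to Wnt1, Hes3, Fgf15, Egr2 and Olig1, and all of these but Fgf15 had at most 185 counts in any library.

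**Figure D1:**
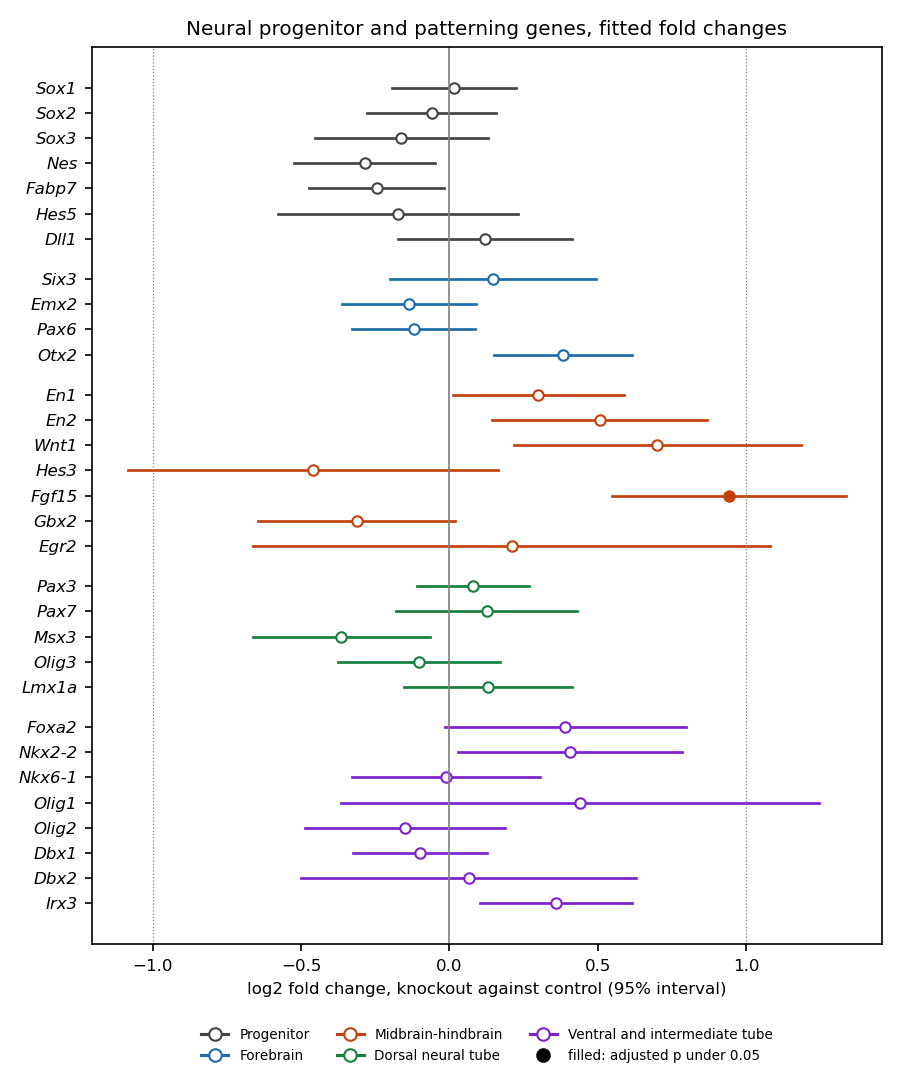
Fitted log2 fold change of each of the 31 genes (x axis, knockout against control; points) with its unadjusted 95% interval (lines), coloured by region; dotted lines mark 2-fold. The filled point is Fgf15, at 0.94, and 26 of the 31 intervals stay inside the dotted lines.

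The members with the highest level per length belonged to progenitors in general. Per kilobase of exon, Nes was at 104 CPM, Fabp7 at 74.9, Sox2 at 50.1 and Hes5 at 25.2 in the control mean, followed by Irx3 at 13.4. The same 5 genes led in the same order in the knockouts, at 84.9, 63.2, 48.1, 22.3 and 17.2 CPM per kilobase. The lowest members in controls were Hes3 at 0.523, Dbx2 at 0.478 and Egr2 at 0.150 CPM per kilobase, and Egr2 had 10 to 21 counts per library. Lengths are all exons of a gene in GENCODE for GRCm38 joined, while the counts were made on mm9.

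Genes common to neural progenitors showed no called change. Sox1, Sox2 and Sox3 encode the closely related HMG-box factors that mark neural progenitors and hold them undifferentiated. Sox1 was at 27.3, 29.9 and 30.4 CPM in controls 1, 2 and 3 and at 27.6, 31.9 and 29.0 CPM in knockouts 1, 2 and 3. The embryos of the groups were fully mixed, and the log2 fold change was 0.017 with a 95% interval of -0.19 to 0.23. Sox2 was at 97.4, 103 and 109 CPM against 90.7, 113 and 92.8 CPM, with knockout 2 the highest of all embryos and the other two knockouts the lowest. Its log2 fold change was -0.06, with an interval of -0.28 to 0.16. Sox3 had -0.16 (-0.45 to 0.13), and in it too knockout 2, at 25.3 CPM, stood above knockouts 1 and 3, at 18.5 and 20.9 CPM.

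Nes and Fabp7, both of the radial processes of progenitors, had the smallest p-values of this group. Nes, the gene of the intermediate filament nestin, was at 694, 598 and 701 CPM in controls and at 609, 487 and 538 CPM in knockouts. Knockout 1 lay above control 2, so the groups overlapped, and the log2 fold change was -0.29 ± 0.11 (SE) with an edgeR adjusted p of 0.192. Fabp7, a fatty acid binding protein of radial glia, was at 103, 80.2 and 97.8 CPM against 83.1, 79.7 and 74.1 CPM. Controls 1 and 3 stood above all others, control 2 lay among the knockouts, and the log2 fold change was -0.24 ± 0.10 with an edgeR adjusted p of 0.232. In a fit with the outside-gene read share as a covariate, Nes was called lower (-0.42, edgeR adjusted p = 0.0401). That fit, which also gave the covariate calls below, called 437 genes higher and 311 lower, against 83 and 144 without the covariate.

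The Notch pathway keeps progenitors from becoming neurons: Dll1 is a ligand on new neurons, and Hes5 a repressor that active Notch switches on in their neighbours. Dll1 had a log2 fold change of 0.12 (-0.17 to 0.41), with 34.6, 36.0 and 45.0 CPM in controls and 45.5, 35.5 and 44.7 CPM in knockouts. Hes5 was at 36.3, 31.9 and 34.8 CPM against 22.8, 40.2 and 28.4 CPM. Knockouts 1 and 3 were the lowest of the 6 embryos and knockout 2 the highest, so the knockouts enclosed the controls. The log2 fold change of Hes5 was -0.17 ± 0.18 (edgeR adjusted p = 0.614), and without knockout 2 it was -0.43 with an edgeR adjusted p of 0.0368. The fit without knockout 2 called 1159 genes higher and 504 lower, against 83 and 144 with all libraries. No tool (edgeR, DESeq2, limma-voom) called any of the 7 progenitor genes, though each put 2 at an unadjusted p under 0.05, and the groups overlapped for all 7. Their median log2 fold change was -0.16, 0.0025 without knockout 1.

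Of 25 other genes of progenitors and Notch signalling, 14 folds were above 0 and 11 below, and edgeR called none. At an unadjusted p under 0.05, 7 were higher and 3 lower, or 40%, beside 19.2% of all tested genes. The groups did not overlap for 12, 7 higher and 5 lower, or 48%, beside 24.1% of all tested genes. As the list was chosen with earlier results of these data known, these shares are no test of it. DESeq2 called Jag1 higher and Hes6 and Prom1 lower, and limma-voom called none. Hes6, which promotes neuron formation, was at 51.1, 49.9 and 55.6 CPM against 43.1, 36.9 and 40.2 CPM, a log2 fold change of -0.38 ± 0.09 with an edgeR adjusted p of 0.0777. Prom1, the surface protein prominin of progenitor membranes, was at -0.28 ± 0.07 (edgeR adjusted p = 0.0885). In both the 3 knockouts lay below the 3 controls.

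The groups overlapped for the forebrain members other than Otx2, which showed a difference that edgeR did not call. Six3, which specifies the rostral forebrain, was at 6.55, 6.26 and 7.74 CPM in controls and 7.13, 6.83 and 8.79 CPM in knockouts, and the groups were mixed. Emx2, a factor of the dorsal telencephalon, had a log2 fold change of -0.13 (-0.36 to 0.09). Pax6, which acts in the forebrain and eye and in ventral progenitors of the hindbrain and spinal cord, had -0.12 (-0.33 to 0.09). Otx2 is needed for forebrain and midbrain and ends at the border with the hindbrain. It was at 18.2, 21.8 and 20.6 CPM in controls and at 24.4, 27.4 and 27.3 CPM in knockouts. All 3 knockouts stood above all 3 controls, and the log2 fold change was 0.38 ± 0.10 (SE), with an edgeR adjusted p of 0.111. DESeq2 called Otx2 higher (adjusted p = 0.0441), and edgeR did not with any library left out (adjusted p from 0.0631 to 0.394). Over all genes DESeq2 called 441 higher and 328 lower, against 83 and 144 by edgeR.

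Of 20 other forebrain genes, 13 folds were below 0 and 7 above, with a median log2 fold change of -0.16. None was called by edgeR or limma-voom. By edgeR 3 (15%) were at an unadjusted p under 0.05, 1 higher and 2 lower, beside 19.2% of all tested genes. The groups did not overlap for 6 (30%), 1 higher and 5 lower, beside 24.1% of all tested genes. Otx1, the paralogue of Otx2, had 283, 321 and 298 counts against 414, 336 and 494, a log2 fold change of 0.54 ± 0.14 with an edgeR adjusted p of 0.0968, and DESeq2 called it. Lhx2, a factor of the telencephalon and eye field, lay lower in all 3 knockouts, with 35.3, 30.6 and 38.6 CPM in controls and 26.0, 24.4 and 29.7 CPM in knockouts. Its log2 fold change was -0.38 ± 0.11, with an edgeR adjusted p of 0.133. Over the 4 forebrain members the median log2 fold change was 0.014 and had no stable sign: it was -0.019 without knockout 3, -0.0090 without control 1, 0.079 without control 3, 0.069 without knockout 2, 0.041 without knockout 1 and -0.073 with the outside-gene read share as a covariate.

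The midbrain-hindbrain genes held the only called member, and 6 of the 10 members whose groups did not overlap. Of the 7 genes these 6 split into 4 higher and 2 lower in knockouts, beside 24.1% of all tested genes. As the list was chosen with earlier results of these data known, this count is no test of it. Their median log2 fold change was 0.30. The genes higher in every knockout were Fgf15, Wnt1, En2 and En1, and those lower in every knockout were Gbx2 and Hes3. Egr2, which marks 2 segments of the hindbrain, rhombomeres 3 and 5, had 15, 10 and 19 counts in controls and 21, 15 and 12 in knockouts, and its log2 fold change of 0.21 had a 95% interval of -0.66 to 1.08.

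Sequence upstream of 3 genes is shown because they stand on either side of the midbrain-hindbrain border: Otx2 on the midbrain side, Gbx2 on the hindbrain side, and Wnt1 at the border itself. Each line gives the 250 bases before the start of the gene from RefSeq (GRCm38.p6), 5′ to 3′ on the gene's strand, with CG dinucleotides in capitals.
Otx2 (chr14:48667645-48667894, minus strand): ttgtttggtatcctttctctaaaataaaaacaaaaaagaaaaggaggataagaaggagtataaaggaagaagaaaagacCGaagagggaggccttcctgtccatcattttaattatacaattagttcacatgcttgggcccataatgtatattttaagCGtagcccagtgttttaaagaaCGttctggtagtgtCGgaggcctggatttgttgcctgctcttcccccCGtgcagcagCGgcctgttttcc
Gbx2 (chr1:89931177-89931426, minus strand): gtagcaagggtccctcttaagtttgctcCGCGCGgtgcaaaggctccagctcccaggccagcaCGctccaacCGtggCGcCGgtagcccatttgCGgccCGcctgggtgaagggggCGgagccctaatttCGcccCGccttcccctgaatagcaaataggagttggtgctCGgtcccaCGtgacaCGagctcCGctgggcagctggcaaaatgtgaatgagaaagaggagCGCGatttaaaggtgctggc
Wnt1 (chr15:98789607-98789856, plus strand): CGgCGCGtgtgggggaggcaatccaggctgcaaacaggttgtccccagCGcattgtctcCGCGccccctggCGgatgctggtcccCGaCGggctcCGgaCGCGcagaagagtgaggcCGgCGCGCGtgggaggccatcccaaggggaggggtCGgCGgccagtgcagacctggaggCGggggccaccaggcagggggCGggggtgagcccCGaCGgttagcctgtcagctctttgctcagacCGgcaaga

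The windows of Wnt1 and Gbx2 held 23 and 18 CG dinucleotides, while that of Otx2, the first of several starts listed for the gene, held 6. In GENCODE no base of the Otx2 and Wnt1 windows and 3 bases of the Gbx2 window lie in an exon of the gene. The RefSeq table matched 25 of the 31 members. Sox3, En2, Hes3, Fgf15, Pax3 and Olig1 were not matched. Of the 25 windows, 18 held at least 1 base of an exon of the same gene in GENCODE, and 11 held over 30, so that many reach into transcribed sequence by that annotation. Those of Emx2, Pax7, Nkx6-1, Dbx2 and Irx3 lay in exons over all 250 bases. The median over the 25 was 15 CG dinucleotides in 250 bases, with a range of 4 in Fabp7 and Olig3 to 32 in Hes5, and over the first window of all 27025 genes in the table it was 6. The box CCAAT, on either strand, lay in 14 of 25 member windows and 34.5% of all windows. The motif GGGCGG lay in 13 of 25 and 32.9%, TATAAA in 5 of 25 and 13%, and CACGTG in 4 of 25 and 6.05%, each counted on both strands. CACGTG was found 2 times in the window of En1 and 1 time each in those of Gbx2, Egr2 and Nkx2-2, and not in those of Otx2 or Wnt1. A match of letters is a description and no evidence of binding.

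Fgf15 encodes a secreted fibroblast growth factor made in the neuroepithelium of the diencephalon, midbrain and rostral hindbrain. It had 345, 429 and 357 counts in controls and 482, 832 and 749 counts in knockouts, or 11.8, 14.6 and 12.6 CPM against 18.6, 30.7 and 25.7 CPM. Every knockout lay above every control, and knockout 2 was the highest and knockout 1 the lowest of the knockouts. The mean was 13.01 ± 1.42 CPM in controls and 25.0 ± 6.11 CPM in knockouts (SD, n = 3), and the log2 fold change was 0.94 ± 0.18 (SE) with a 95% interval of 0.55 to 1.34. The edgeR adjusted p was 0.0363, and Fgf15 ranked 170 by p among all tested genes. Omitting control 1 (edgeR adjusted p = 0.21), 2 (0.113) or 3 (0.107) or knockout 3 (0.137) ended the call, as did fits with limma-voom (adjusted p = 0.0578) and with a minimum mean of 1 CPM (edgeR adjusted p = 0.0534), while the log2 fold change stayed between 0.77 and 1.17 in every fit. Against Sox2 in the same library, the CPM ratio of Fgf15 was 0.122, 0.141 and 0.116 in controls and 0.205, 0.272 and 0.277 in knockouts.

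Wnt1, a secreted signal of the midbrain side of the border and of the dorsal midline, was at 3.19, 3.47 and 3.36 CPM in controls and at 3.85, 6.83 and 5.59 CPM in knockouts. Knockouts 2 and 3 were well apart from the controls, and knockout 1 was close above them. The counts behind these values were 93, 102 and 95 against 100, 185 and 163. The log2 fold change was 0.70 ± 0.21 (SE), and the edgeR adjusted p of 0.141 missed the threshold. With the outside-gene read share as a covariate it was 0.95 and called (edgeR adjusted p = 0.0292).

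En1 and En2 encode the paired Engrailed homeodomain factors that Wnt1 maintains in the midbrain and rostral hindbrain. En2 was at 12.2, 10.1 and 15.2 CPM in controls and at 15.5, 19.9 and 17.8 CPM in knockouts. Control 3 and knockout 1 nearly met, and the log2 fold change was 0.51 ± 0.16 (SE) with an edgeR adjusted p of 0.151. En1 was at 7.58, 7.07 and 7.95 CPM against 10.2, 9.09 and 8.55 CPM. Its groups did not overlap either, and the log2 fold change was 0.30 ± 0.13 with an edgeR adjusted p of 0.246. The CPM ratio of En2 to En1 within an embryo was 1.61, 1.42 and 1.91 in controls and 1.51, 2.19 and 2.08 in knockouts, and these overlapped.

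Gbx2, the homeodomain factor of the rostral hindbrain that opposes Otx2 across the border, was at 8.13, 6.46 and 8.62 CPM in controls and at 6.13, 6.32 and 6.25 CPM in knockouts. The knockouts were close together just under control 2, and the log2 fold change was -0.31 ± 0.15 (SE) with an edgeR adjusted p of 0.28. The ratio of Otx2 to Gbx2 CPM within an embryo was 2.24, 3.38 and 2.38 in controls and 3.98, 4.34 and 4.37 in knockouts. The ratio was thus above every control in all 3 knockouts, by 0.69 on the log2 scale between the group means. The ratio was chosen after the values were seen and has no test. Hes3, a repressor that keeps progenitors of the border region undifferentiated, had 30, 30 and 29 counts in controls and 17, 26 and 18 in knockouts. Its log2 fold change of -0.46 had a 95% interval of -1.08 to 0.16.

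**Figure D2:**
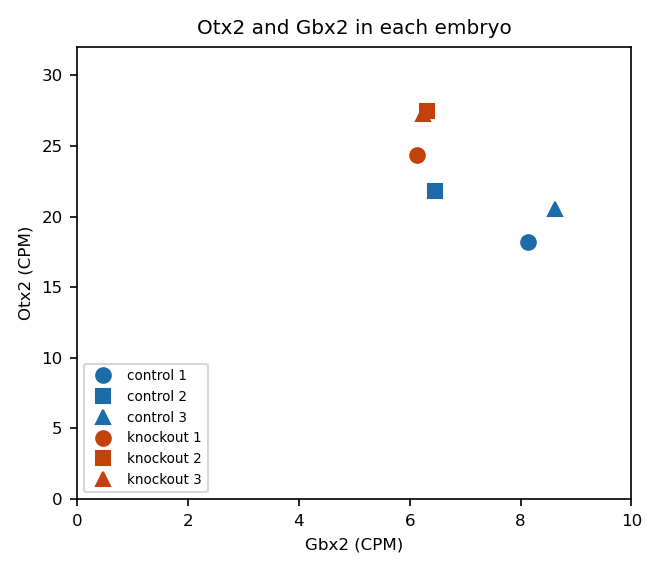
Level of Otx2 (y axis, CPM) against Gbx2 (x axis, CPM) in each of the 6 embryos, controls in blue and knockouts in orange, with a symbol for each replicate number. The 3 knockouts lie above 24 CPM of Otx2 and to the left of all controls, and control 2 is the nearest control to them.

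Among 16 other genes of the midbrain-hindbrain region, 14 folds were above 0, with a median log2 fold change of 0.12, and no tool (edgeR, DESeq2, limma-voom) called any. By edgeR 3 (18.75%) were at an unadjusted p under 0.05, all higher, beside 19.2% of all tested genes. The groups did not overlap for 3 (18.75%), all higher, beside 24.1% of all tested genes. Neither share exceeds that of all tested genes, so these counts give no result about the list. Lmx1b, which acts upstream of the border signals, was at 5.83, 5.92 and 6.33 CPM in controls and at 8.13, 8.57 and 6.86 CPM in knockouts (log2 fold change 0.38 ± 0.14, edgeR adjusted p = 0.188). Pax5, which marks the border, was at 0.686, 0.748 and 0.919 CPM against 1.27, 1.63 and 1.06 CPM (0.75 ± 0.28, edgeR adjusted p = 0.19). In both every knockout was above every control. Fgf8, the organising signal of the border, had a log2 fold change of -0.05 ± 0.19 and is named after its value was seen.

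**Figure D3:**
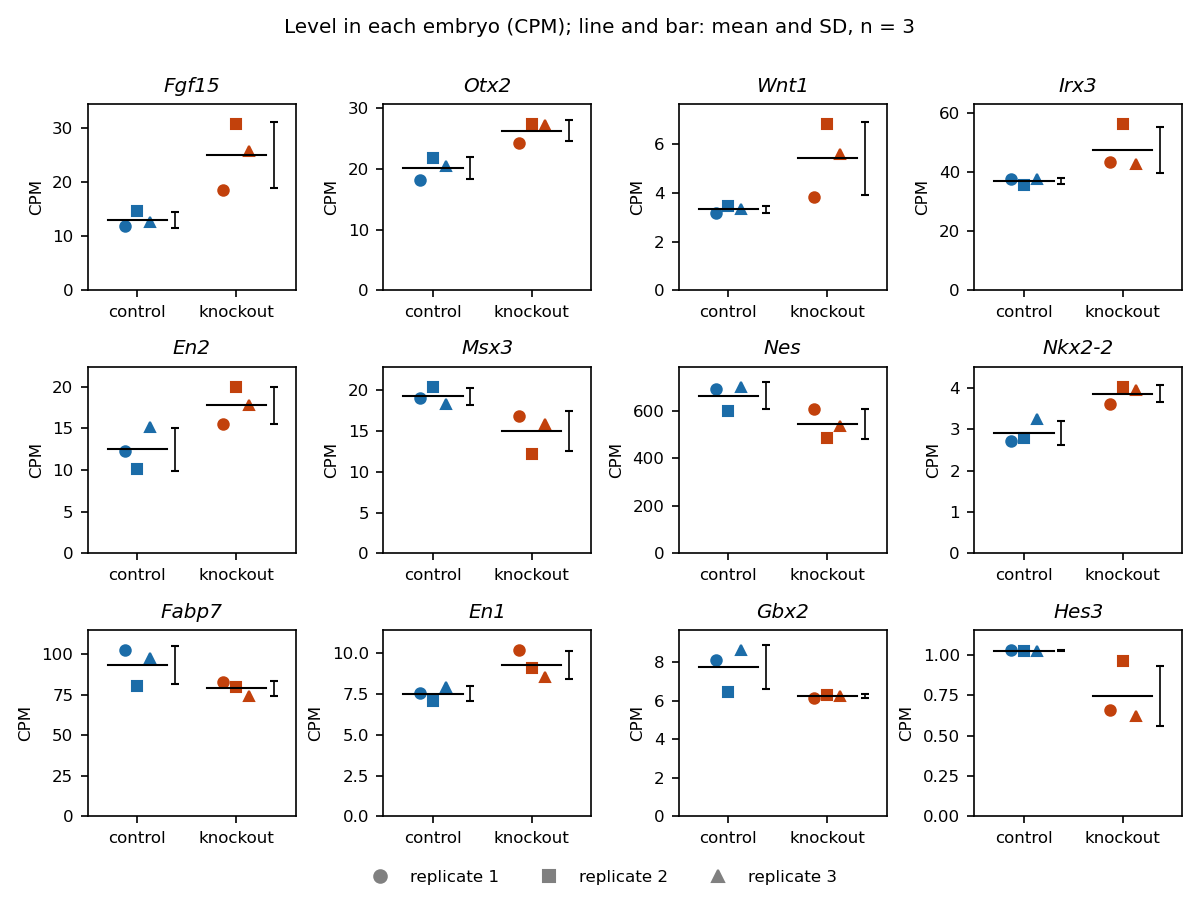
CPM in each embryo (y axes, from 0) for the 10 members with the smallest p-values and for Gbx2 and Hes3; symbols are embryos, horizontal lines group means and bars to the right the SD, n = 3. Fgf15, Otx2, Wnt1, Irx3, En2, Nkx2-2 and En1 lie higher in every knockout, and Msx3, Gbx2 and Hes3 lower.

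Genes of the dorsal neural tube gave no calls, and 4 of the 5 had mixed groups. Pax3 and Pax7 are paired-box factors of the dorsal tube that also act in neural crest and muscle precursors. Pax3 was at 44.4, 40.9 and 42.6 CPM in controls and 44.1, 42.5 and 48.6 CPM in knockouts, a log2 fold change of 0.08 (95% interval -0.11 to 0.27). Pax7 had 0.13 (-0.18 to 0.43). Olig3, a factor of the most dorsal neuron progenitors, had -0.10 (-0.37 to 0.17), and Lmx1a, which specifies the roof plate, had 0.13 (-0.15 to 0.41).

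Msx3, a homeobox gene that in the mouse is used almost only in the dorsal neural tube, was the exception. It was at 19.1, 20.4 and 18.3 CPM in controls and at 16.8, 12.2 and 15.9 CPM in knockouts. All knockouts lay below all controls, knockout 2 furthest, and the log2 fold change was -0.36 ± 0.13 (SE) with an edgeR adjusted p of 0.185. Without knockout 2 it was -0.24 (edgeR adjusted p = 0.162). With the outside-gene read share as a covariate and all libraries it was -0.58 and called (edgeR adjusted p = 0.0347). Over the 5 dorsal genes the median log2 fold change was 0.08, and -0.00040 without control 2, and all 3 tools gave no call and 1 gene, Msx3 by edgeR, at an unadjusted p under 0.05.

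Of 19 other dorsal genes none was called by any of the 3 tools, and the median log2 fold change was -0.07. By edgeR 3 (15.8%) were at an unadjusted p under 0.05, 1 higher and 2 lower, beside 19.2% of all tested genes. The groups did not overlap for 3 (15.8%), beside 24.1% of all tested genes. Gdf7, a growth factor of the roof plate, had 24, 22 and 18 counts against 39, 48 and 33, with every knockout higher (log2 fold change 0.99 ± 0.27, edgeR adjusted p = 0.116). Msx1, which is expressed in the dorsal midline and widely in limb and face, had -0.25 ± 0.09 (edgeR adjusted p = 0.172).

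Genes of the ventral and intermediate tube had folds on both sides of 0, and none was called. From the midline outward, Foxa2 marks the floor plate, Nkx2-2 the most ventral neuron progenitors, Olig2 and Olig1 those of motor neurons, Nkx6-1 the ventral tube as a whole, and Dbx1, Dbx2 and Irx3 the bands above. Foxa2 was at 5.38, 3.88 and 4.21 CPM in controls and at 5.28, 6.83 and 5.56 CPM in knockouts. Control 1 lay among the knockouts, and the log2 fold change was 0.39 ± 0.18 (SE, edgeR adjusted p = 0.273). Foxa2 is also a gene of the gut endoderm and notochord, which a whole embryo holds.

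Nkx2-2 had 79, 82 and 92 counts in controls and 94, 109 and 115 in knockouts, or 2.71, 2.79 and 3.25 CPM against 3.62, 4.03 and 3.95 CPM. The groups did not overlap, and the log2 fold change was 0.41 ± 0.17 (edgeR adjusted p = 0.232). The motor neuron progenitor genes were mixed between groups: Olig2 was at 7.24, 6.97 and 6.86 CPM against 5.90, 5.61 and 7.45 CPM, with a log2 fold change of -0.15 (95% interval -0.49 to 0.19). Olig1 had 36, 31 and 52 counts against 27, 72 and 55, and its interval of -0.36 to 1.25 is wide. Nkx6-1 had a log2 fold change of -0.013 (-0.33 to 0.30).

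Of the intermediate genes, Dbx1 was at 19.7, 18.8 and 22.1 CPM against 19.3, 19.1 and 18.0 CPM, and the groups were mixed. Its log2 fold change was -0.10 (-0.32 to 0.13), and that of its paralogue Dbx2, with 37 to 60 counts per library, was 0.06 (-0.50 to 0.63). Irx3, which bounds the motor neuron progenitors from above and is also used in limb and mesoderm, was at 37.7, 35.6 and 37.6 CPM in controls and at 43.3, 56.2 and 42.7 CPM in knockouts. Every knockout was higher, knockout 2 by far the most, and the log2 fold change was 0.36 ± 0.11 (SE) with an edgeR adjusted p of 0.15. It was 0.22 without knockout 2, and 0.54 and called with the outside-gene read share as a covariate (edgeR adjusted p = 0.00877). No tool (edgeR, DESeq2, limma-voom) called any of the 8 ventral and intermediate genes. Their median log2 fold change was 0.21 (0.14 without knockout 2), and edgeR gave 2 of them, Irx3 and Nkx2-2, an unadjusted p under 0.05.

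Of 17 other ventral genes, 2 were called higher and none lower by edgeR, and 7 were at an unadjusted p under 0.05. These are 11.8% and 41.2% of the list, beside 1.51% and 19.2% of all tested genes. The list was chosen with earlier results of these data known, so the shares are no test of it. Both called genes belong to the Sonic hedgehog pathway, which patterns the ventral tube and also acts in limb, somite and gut. Gli1, a transcription factor that the pathway switches on, was at 25.2, 22.5 and 26.7 CPM in controls and at 40.3, 35.2 and 44.1 CPM in knockouts. The groups were well apart, with a log2 fold change of 0.69 ± 0.11 (SE) and an edgeR adjusted p of 0.0188. Ptch1, the receptor for Sonic hedgehog and itself a target of the pathway, was at 89.1, 83.2 and 88.5 CPM against 105, 123 and 116 CPM, a log2 fold change of 0.40 ± 0.08 with an edgeR adjusted p of 0.0445. Shh itself had 0.24 ± 0.11 (edgeR adjusted p = 0.289) and is named after its value was seen. Omitting control 1 (edgeR adjusted p = 0.114), 2 (0.0903) or knockout 3 (0.091) ended the call of Gli1. Omitting control 1 (edgeR adjusted p = 0.211), 2 (0.136) or 3 (0.107) or knockout 3 (0.202) ended that of Ptch1, as did fits with limma-voom (adjusted p = 0.0548) and with a minimum mean of 1 CPM (edgeR adjusted p = 0.0587).

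Knockout 2 was most often the extreme embryo among the knockouts. It was the highest of the 3 for 16 of 31 members and the lowest for 10, while knockout 1 was the highest for 8 and the lowest for 14, and knockout 3 the highest and the lowest for 7 each. The 6 members with positive folds among the 10 smallest p-values, other than En1, were each highest in knockout 2. The median of the 7 midbrain-hindbrain genes against the control mean, on log2(CPM + 0.5), was 0.315, 0.256 and 0.172 in knockouts 1, 2 and 3, and 0.004, -0.084 and 0.074 in controls. For the ventral and intermediate genes it was -0.008, 0.244 and 0.233 in knockouts, and for the progenitor genes -0.161, 0.072 and -0.203. The midbrain-hindbrain median was thus above every control in each knockout, which held for none of the other member groups. Separation was not particular to this group, since medians of some lists of other genes were apart too. Endothelial markers were at -0.044 to 0.039 in controls and 0.144 to 0.524 in knockouts. The 16 other midbrain-hindbrain genes were at -0.030 to 0.021 against 0.119 to 0.240. The 19 other dorsal genes were at 0.009 to 0.074 against -0.047 to -0.033.

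**Figure D4:**
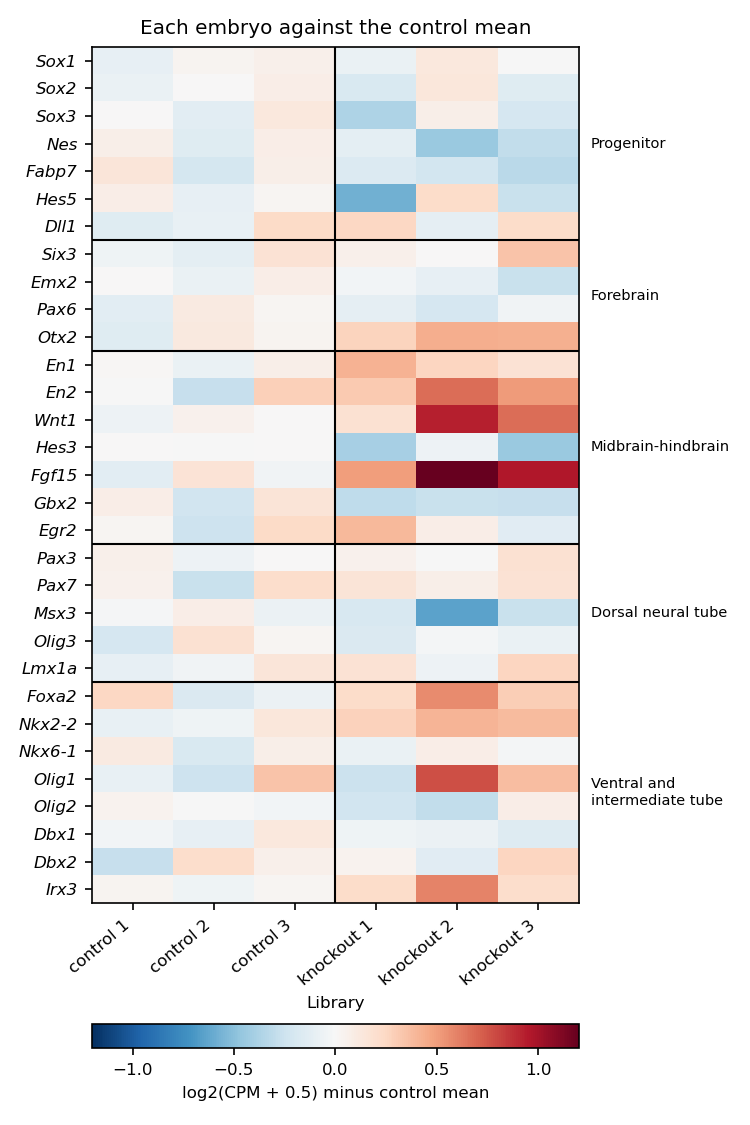
Each member (rows, grouped by region) in each library (columns) as log2(CPM + 0.5) minus the control mean, from blue (lower) to red (higher). Fgf15 and Wnt1 are reddest in knockout 2 and then knockout 3, and Msx3 is bluer in knockout 2 than in the other knockouts.

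Members were also set against other neural genes. When each level was divided by the summed level of Sox1, Sox2 and Sox3 in the same embryo, a scale chosen after the values were seen, 8 of 28 members were higher in every knockout, 1 lower and 19 mixed. The share of all tested genes that were apart on this scale was not computed, so these counts give no result about the members. The 8 were the 7 that were higher on the CPM scale, with Foxa2 added. Gbx2 and Msx3, lower in every knockout by CPM, overlapped on this scale, and Hes3 stayed apart. The difference was 0.98 on the log2 scale for Fgf15, 0.73 for Wnt1, 0.58 for En2, 0.45 for Otx2 and 0.36 for En1, beside 0.94, 0.70, 0.51, 0.38 and 0.30 in the fit of all genes.

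Some members share exonic sequence with another gene. In the GENCODE annotation 10 of the 31 overlap exons of an antisense gene, among them Fgf15, Otx2, Gbx2, Hes5, Dll1 and Irx3. The libraries were stranded, but the strand setting of the counting is not given in the sources used here. If strand was not used, reads of these genes and their antisense partners cannot be told apart. Of the partners the count tables list Six3os1, Emx2os and Otx2os1. Otx2os1 had 4 to 17 counts per library beside 530 to 795 for Otx2. Six3os1, with 313 to 611 counts, had more than Six3, with 184 to 256. Sox2ot, the transcript within which Sox2 lies, is in no list and was picked after its value was known. It had 304, 348 and 369 counts in controls and 458, 349 and 579 in knockouts, a log2 fold change of 0.51 ± 0.17 with an edgeR adjusted p of 0.154, beside -0.06 for Sox2.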

How the data were processed

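For each library the authors deposited a table of whole-number counts per gene symbol, with no normalization. Per the submitters' processing notes, Trimmomatic, TopHat2, Bowtie2 and HTSeq were used with the mm9 genome, without versions; the annotation is not given in the sources used here. The 5 closing rows of each table that name no gene stayed out of library sizes and tests. Counts per repeat name were not used here.

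The members and all lists were chosen with earlier results of these data known. Groups and replicate numbers came from the sample titles. The test was the robust quasi-likelihood F test of edgeR 4.0.16 (R 4.3.3) on all 6 libraries, with a term for group alone and TMM factors. Genes entered if filterByExpr kept them (min.count 10, min.total.count 15). P-values were adjusted by Benjamini-Hochberg over all 15075 tested genes, and a standard error is the size of the log2 fold change divided by the root of its F statistic. The biological coefficient of variation was 12.2%. Replicates of a group differed by chi-square values of 16.7 to 46.0 per degree of freedom, more than repeat sequencing of the same library would give. These values do not show whether the libraries came from separate embryos. Values in full are given for the 10 members with the smallest p and, in each wider list, for called genes and the 2 with the smallest p; other genes that are no members are called marker genes, DESeq2 calls, antisense partners, or said to be picked after their values were known. On simulated counts of 14938 genes for this comparison, 74.6% of 67 genes changed 1.5-fold were recovered, 73.1% of 67 changed 2-fold and 100% of 66 changed 4-fold, with 14 false calls. Alternatives were other scalings, DESeq2 1.42.0, limma-voom (limma 3.58.1), other filters and thresholds, the replicate number as a block, a covariate, and each library left out; the ratio to Sox1, Sox2 and Sox3 was added after seeing the data.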

Additional observations from a re-analysis of the deposited data

How the results depend on the processing

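Every log2 fold change of the 10 members given in full, and of Gli1 and Ptch1, kept its direction under all 17 refitted alternatives, and the 10 members also did so relative to Sox1, Sox2 and Sox3. All were picked by p or call in the main fit on these same libraries, so a kept direction is no independent support. The count of members called higher, 1, was 2 by DESeq2, 3 with the outside-gene read share as a covariate, and 0 by limma-voom, with a minimum mean of 1 CPM or at an adjusted p under 0.01; with single libraries left out it was 0 to 1. No member was called lower, except 2 with that covariate and 0 to 1 with single libraries left out. The covariate moves with the groups, since knockouts 1 and 3 lie outside the range of the controls. The 83 higher and 144 lower genes became 441 and 328 by DESeq2, 437 and 311 with the covariate, 44 and 65 with a minimum mean of 1 CPM, 272 and 256 at an adjusted p under 0.1, and 11 and 66 at 0.01. The higher genes were 52 by limma-voom and 144 with no filter. Single libraries left out gave 7 to 1159 higher and 53 to 504 lower genes, the most in both cases without knockout 2. The median log2 fold change of the midbrain-hindbrain genes was 0.51 with a minimum mean of 1 CPM, which drops the low members, and 0.23 to 0.46 with single libraries left out. The progenitor median was -0.019 with the covariate and -0.22 to 0.0025 with single libraries left out, and the dorsal median -0.062 and -0.00040 to 0.12. The forebrain median was -0.019 to 0.079 and the ventral median 0.14 to 0.26 with single libraries left out.

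With the replicate number as a block, 333 genes were higher and 256 lower, and Fgf15 was again the only called member. Same-numbered libraries of the groups had correlations of deviations of -0.13, 0.317 and 0.408. Knockout 1 correlated best with control 3 (0.510). Knockout 2 correlated best with control 2, though nearly as well with control 1 (0.283), and knockout 3 with control 3. These values do not settle whether the numbers mark pairs. The labels name no pairs, so the main fit used none.

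Depth limits Hes3 and Egr2, which had at most 30 counts in any library.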
